A study of Mus musculus with 7 samples.

Results

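The microRNAs described here are the 10 guide strands of the miR-17-92 cluster and its paralogs: mmu-miR-17, mmu-miR-18a, mmu-miR-19a, mmu-miR-19b, mmu-miR-20a and mmu-miR-92a of miR-17-92, mmu-miR-106a of the miR-106a-363 cluster, and mmu-miR-106b, mmu-miR-93 and mmu-miR-25 of miR-106b-25, written below without the mouse prefix. They were chosen by their mouse names among the 611 mouse microRNAs on an Agilent microRNA array. Of the 10, 9 had probes in the files (miR-106a was not analysed here) and 8 had a probe bright enough to be tested. The study set kidneys of the megabladder mouse, a mutant whose bladder lacks normal smooth muscle so that urine backs up into the kidneys, against kidneys of wild-type mice. The arrays held 3 male homozygous megabladder mice (genotype mgb-/-, numbered 2, 3 and 4) and 4 male wild-type mice (mgb+/+, numbered 1 to 4), labelled as 4 weeks old with a collection range of 3.5 to 4 weeks. Each mouse gave total RNA of a snap-frozen whole kidney, of which 100 ng was labelled with the dye Cy3 for 1 array. A mutant mouse numbered 1 was not analysed here, although the series text counts 4 mutants. The labels name a separate mouse for each array, and p-values measure the spread between these 7 kidneys only.

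A microRNA cluster is a run of hairpins cut from a single transcript, so its members start from the same promoter, while each mature strand is then processed and degraded on its own. The miR-17-92 transcript is driven by Myc and E2F factors, is abundant in dividing cells and is required in mice for normal numbers of nephron progenitors. The miR-106b-25 hairpins lie in an intron of Mcm7, a gene of the DNA replication machinery, and so share its transcription. A mature microRNA finds its targets mainly through bases 2 to 8, the seed, and members with the same seed are expected to bind many of the same messages: the miR-17 family is known for repressing the cell cycle inhibitor Cdkn1a, and miR-92a and miR-25 for repressing the pro-apoptotic gene Bcl2l11.

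The mature sequences are shown because the seed sorts the members differently from the clusters, and because some of the strands differ by only a single base. They were taken from RefSeq (GRCm38.p6), and capitals mark the seed. On chromosome 14 the hairpins run in the order miR-17, miR-18a, miR-19a, miR-20a, miR-19b and miR-92a, and miR-19b and miR-92a have a second copy on chromosome X beside miR-106a with the same mature sequence. The array reads both copies of miR-19b and miR-92a together. Chromosome 5 holds miR-25, miR-93 and miR-106b inside Mcm7.
miR-17: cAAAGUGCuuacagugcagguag
miR-20a: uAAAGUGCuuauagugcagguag
miR-106a: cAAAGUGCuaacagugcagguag
miR-106b: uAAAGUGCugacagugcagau
miR-93: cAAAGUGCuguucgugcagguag
miR-18a: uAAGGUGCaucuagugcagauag
miR-19a: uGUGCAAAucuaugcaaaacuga
miR-19b: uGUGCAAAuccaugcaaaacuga
miR-92a: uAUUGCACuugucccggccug
miR-25: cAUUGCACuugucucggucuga

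Counted from 1 at the 5′ end, and with the base of the strand named first standing first, miR-17 differs from miR-20a by C1U and C12U, from miR-106a by U10A and from miR-93 by U10G, A11U, C12U and A13C. The miR-19 strands differ by U11C alone (miR-19a to miR-19b), and miR-92a differs from miR-25 by U1C, C14U and C18U over the 21 positions they share. None of these changes lies in the seed. The seed families therefore cross the clusters: miR-17, miR-20a, miR-106a, miR-106b and miR-93 share AAAGUGC, miR-92a and miR-25 share AUUGCAC, miR-19a and miR-19b share GUGCAAA, and miR-18a alone holds AAGGUGC.

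A level here is the log2 of the background-subtracted spot signal, scaled so that 1 value, the 75th percentile of the 292 probes that were detected on every array, is equal in all kidneys, with a floor of 11.4 units (3.51 on the log2 scale), and averaged over the probes of a microRNA that stood well above background on at least 3 arrays. Levels are read between kidneys and not between microRNAs, since each probe has its own brightness. The arrays shared 1 slide and 1 scan, with all megabladder arrays in 1 row of the slide and all wild-type arrays in the other, so that the effects of slide row and of genotype cannot be told apart. Before scaling, the megabladder arrays were dimmer: the 75th percentile was 224 to 333 units in megabladder kidneys and 348 to 496 units in wild-type kidneys, a log2 difference of -0.61 (exact 2-sided permutation test, p = 0.0286, the smallest that 35 splits allow). Wild-type mice 3 and 4 stood apart from wild-type mice 1 and 2. The median level of all 213 tested microRNAs was 5.53 to 5.63 in megabladder kidneys, 5.38 and 5.35 in wild-type mice 1 and 2, and 4.99 in each of wild-type mice 3 and 4. All 6 kidney tubule microRNAs examined, such as miR-192, were above background on all 7 arrays, and none of 5 microRNAs of liver, brain and muscle was, with 3 of them (miR-124, miR-133a and miR-208a) above background on no array.

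None of the 8 tested members passed the test between genotypes (limma, Benjamini-Hochberg adjusted p from 0.526 to 0.970), where 3.29% of all 213 tested microRNAs did (2.82% higher in megabladder kidneys and 0.469% lower). None of the 8 had an unadjusted p under 0.05, against 23% of all, and none had genotypes without overlap, against 22.1% of all. Of the 8 log2 fold changes, 7 were above 0 and miR-19a's was below it, with a median of 0.14 beside 0.087 over all tested microRNAs, of which 68.1% were above 0. Leaving out each mouse in turn moved the members' median from 0.058 (without megabladder mouse 4) to 0.20 (without wild-type mouse 1), with 0.069 when wild-type mouse 3 was dropped. Minus the median of all microRNAs in the same fit, it was -0.011 without megabladder mouse 4 and -0.0046 without wild-type mouse 3. These signs hold for this scaling only: all 8 were below 0 without scaling and after scaling over all probes, and 6 of 8 after scaling by the median or by quantiles. In every tested member wild-type mice 3 and 4 had the lowest levels among the wild-type mice, by 0.23 to 0.63 log2 units on average below mice 1 and 2. Over all tested microRNAs that order was seen in 44.1%. In whole-kidney RNA, fewer cells of a type and less of a microRNA per cell cannot be told apart.

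**Figure D1:**
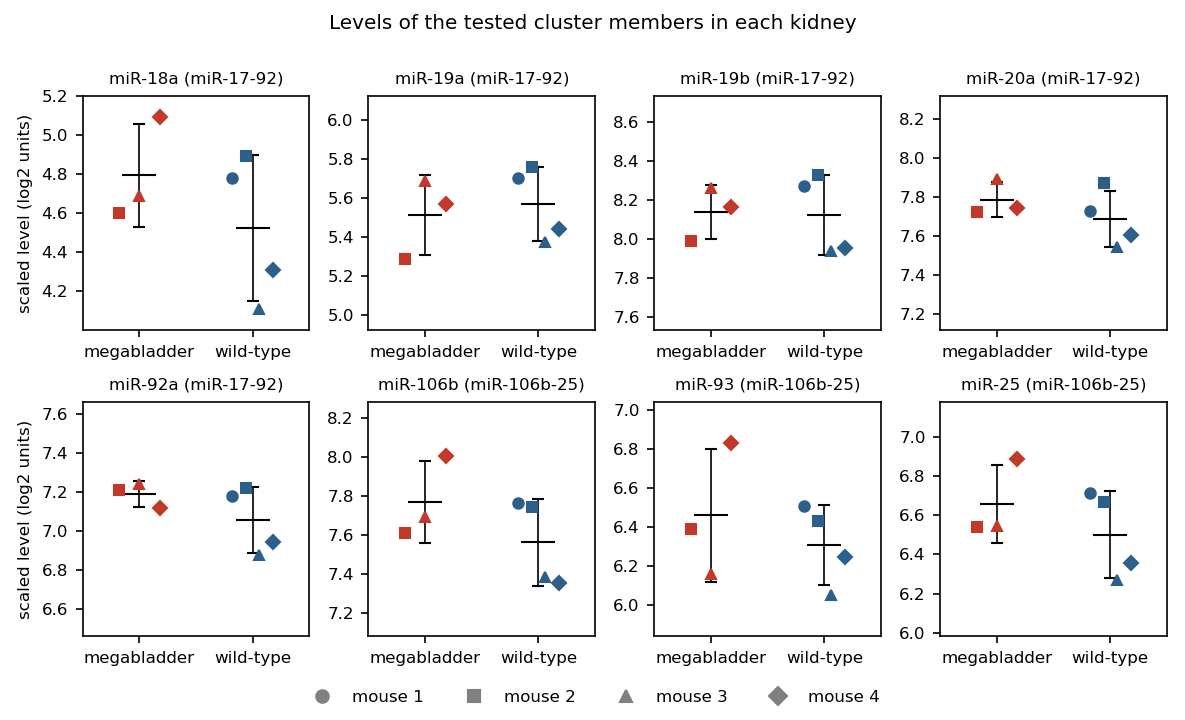
Scaled level (log2 units) of the 8 tested members in each kidney, with megabladder mice in red at the left and wild-type mice in blue at the right of each panel, 1 point per mouse, and the mean with its SD as a bar. Every panel spans the same range of log2 units. Wild-type mice 3 and 4 lie below wild-type mice 1 and 2 in all 8 panels, and the points of the genotypes overlap in all 8.

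Within the miR-17 seed family, mmu-miR-20a, the close relative of miR-17 in the same transcript, had levels of 7.73, 7.89 and 7.74 in megabladder mice 2, 3 and 4, against 7.73, 7.87, 7.55 and 7.60 in wild-type mice 1 to 4. Its highest value was in megabladder mouse 3 and its lowest in wild-type mouse 3, and the groups overlapped. The means were 7.79 ± 0.091 in megabladder kidneys and 7.69 ± 0.14 in wild-type kidneys (SD, n = 3 and 4), and limma gave a log2 fold change of 0.099 (SE 0.11, 95% interval -0.16 to 0.36, adjusted p = 0.692 after Benjamini-Hochberg). The spread of miR-20a was the narrowest among the members, with 0.34 log2 units between its highest and lowest kidney.

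The guide strand mmu-miR-17, which names the family, was not well above background on any of the 7 arrays. The first of its 2 probes gave a scaled signal of -0.21 to 0.99 units in megabladder kidneys and -0.054 to 0.93 units in wild-type kidneys. The second gave 5.95 to 7.14 units in megabladder kidneys and 5.63 to 8.56 units in wild-type kidneys, below the floor of 11.4 units on every array. Of the 64 spots of the second probe that were used, 1 stood well above background. The scanner software's own call, which sums the probes of a microRNA without scaling between arrays, listed miR-17 as detected in 0 of 3 megabladder kidneys and in 3 of 4 wild-type kidneys, with a total signal of 6.18, 5.92 and 5.17 units in wild-type mice 1, 2 and 3 and the value it gives to undetected microRNAs, 0.10 units, in the rest. When those totals replaced the spot signals, miR-17 met the rule of 3 arrays only through wild-type kidneys. The fit gave an unadjusted p of 0.0507, an adjusted p of 0.330 (limma) and a log2 fold change of -0.61 (SE 0.26). All 3 megabladder kidneys held the value given to undetected microRNAs, so neither the p-values nor the size are read as a genotype difference.

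The opposite arm of the same hairpin, miR-17*, is normally the strand that is discarded. Its mature sequence, shown because this arm and not the guide was measured on every array, is as follows in RefSeq (GRCm38.p6), with bases 2 to 8 in capitals.
miR-17*: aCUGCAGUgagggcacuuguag

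It had levels of 4.27, 4.47 and 4.22 in megabladder mice 2, 3 and 4, against 4.46, 4.41, 4.14 and 4.17 in wild-type mice 1 to 4. The groups overlapped, and megabladder mouse 3 was highest and wild-type mouse 3 lowest, as for miR-20a. The log2 fold change was 0.028 (SE 0.12, 95% interval -0.26 to 0.31, adjusted p = 0.929, limma). Of the 2 probes of miR-17*, 1 stood well above background on all 7 arrays and the other on none. So the hairpin of miR-17 gave a reading on every array from its discarded arm and on none from its guide arm by the rule used here. Probe chemistry and strand abundance behind that contrast were not tested.

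The miR-18 seed family had a single tested member, mmu-miR-18a, whose seed AAGGUGC differs from that of miR-17 by a single base. Its levels were 4.60, 4.69 and 5.09 in megabladder mice 2, 3 and 4, against 4.78, 4.89, 4.11 and 4.31 in wild-type mice 1 to 4. Megabladder mouse 4 was the highest kidney and wild-type mouse 3 the lowest, and megabladder mice 2 and 3 lay between the pairs of wild-type mice. Its log2 fold change of 0.27 was the highest of the members with all 7 arrays and also the least precise (SE 0.23, 95% interval -0.26 to 0.80, adjusted p = 0.590, limma). The interval runs from 0.835-fold to 1.74-fold, so that it holds both a fall and a rise. Only 1 of its 2 probes was bright enough to be used. Leaving out each mouse in turn gave 0.11 to 0.39, with 0.11 without megabladder mouse 4, where miR-92a was higher at 0.16, and 0.13 without wild-type mouse 3. Without both wild-type mice 3 and 4, the log2 fold change was -0.058.

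The miR-19 strands were the lowest in fold change. Levels of mmu-miR-19a were 5.29, 5.68 and 5.57 in megabladder mice 2, 3 and 4, against 5.70, 5.76, 5.38 and 5.44 in wild-type mice 1 to 4. Levels of mmu-miR-19b were 7.99, 8.26 and 8.16 in megabladder mice 2, 3 and 4, against 8.27, 8.33, 7.94 and 7.95 in wild-type mice 1 to 4. In both strands megabladder mouse 2 was the lowest megabladder kidney, wild-type mouse 2 was the highest of all, and the groups overlapped. The log2 fold change was -0.056 for miR-19a (SE 0.15, 95% interval -0.40 to 0.28, adjusted p = 0.905, limma) and 0.015 for miR-19b (SE 0.14, 95% interval -0.31 to 0.34, adjusted p = 0.970, limma). The probes disagreed in sign for both strands: those of miR-19a gave 0.023 and -0.14, and those of miR-19b gave 0.11 and -0.082.

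The last hairpin of the cluster gives mmu-miR-92a, which shares its seed with miR-25. Its levels were 7.21, 7.24 and 7.12 in megabladder mice 2, 3 and 4, against 7.18, 7.22, 6.88 and 6.95 in wild-type mice 1 to 4. The 3 megabladder kidneys lay close to each other and beside wild-type mice 1 and 2, while wild-type mice 3 and 4 were lower. The means were 7.19 ± 0.066 in megabladder kidneys and 7.06 ± 0.17 in wild-type kidneys (SD, n = 3 and 4), with a log2 fold change of 0.13 (SE 0.12, 95% interval -0.14 to 0.40, adjusted p = 0.605, limma). Without wild-type mice 3 and 4 it was -0.028.

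In the paralogous cluster, mmu-miR-106b, a miR-17 family member, had levels of 7.61, 7.69 and 8.004 in megabladder mice 2, 3 and 4, against 7.76, 7.74, 7.38 and 7.35 in wild-type mice 1 to 4. Levels of mmu-miR-93, of the same family, were 6.39, 6.16 and 6.83 in megabladder mice 2, 3 and 4, against 6.51, 6.43, 6.05 and 6.25 in wild-type mice 1 to 4. Levels of mmu-miR-25, which has the miR-92a seed, were 6.54, 6.55 and 6.89 in megabladder mice 2, 3 and 4, against 6.71, 6.67, 6.27 and 6.36 in wild-type mice 1 to 4. All 3 were highest in megabladder mouse 4, and in all 3 the other megabladder mice lay within the range of the wild-type mice. The log2 fold changes were 0.21 for miR-106b (SE 0.16, 95% interval -0.16 to 0.58, adjusted p = 0.526), 0.15 for miR-93 (SE 0.19, 95% interval -0.29 to 0.59, adjusted p = 0.728) and 0.16 for miR-25 (SE 0.15, 95% interval -0.21 to 0.52, adjusted p = 0.654), all from limma. Megabladder mouse 4 set much of these values: without it they were 0.081 for miR-106b, -0.040 for miR-93 and 0.036 for miR-25.

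The red cell microRNAs were highest in the same mouse. Levels of miR-451, the most abundant microRNA of red cells, were 10.87, 11.13 and 11.79 in megabladder mice 2, 3 and 4, against 11.22, 10.99, 11.27 and 11.40 in wild-type mice 1 to 4, and miR-144 and miR-486 also had their highest level, 6.91 and 6.16, in megabladder mouse 4. The summed signal of these 3 erythroid markers, all above background on all arrays, ranged from 10.93 to 11.86 in megabladder kidneys and from 11.06 to 11.46 in wild-type kidneys on the log2 scale. The summed leukocyte markers, of which 5 of 7 were tested and none passed, ranged from 7.71 to 7.99 in megabladder kidneys and from 7.73 to 7.91 in wild-type kidneys. Megabladder mouse 3, with the lowest miR-93 among the megabladder mice and the highest miR-20a and miR-92a of all 7, differed in both directions among the 6 tubule microRNAs. It had the lowest miR-192 (9.50, against 10.07 to 10.19 in wild-type kidneys) and miR-194 (7.92, against 8.40 to 8.55 in wild-type kidneys) of all 7, but the highest miR-10a (9.53, against 9.15 to 9.45 in wild-type kidneys) and miR-204 (5.79, against 4.58 to 5.64 in wild-type kidneys), while its miR-10b (8.70) and miR-30a (10.34) lay within the wild-type range. The summed tubule markers ranged from 11.76 to 11.95 in megabladder kidneys and from 11.87 to 11.93 in wild-type kidneys. The part of red cell or tubule content in the members' levels was not tested.

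**Figure D2:**
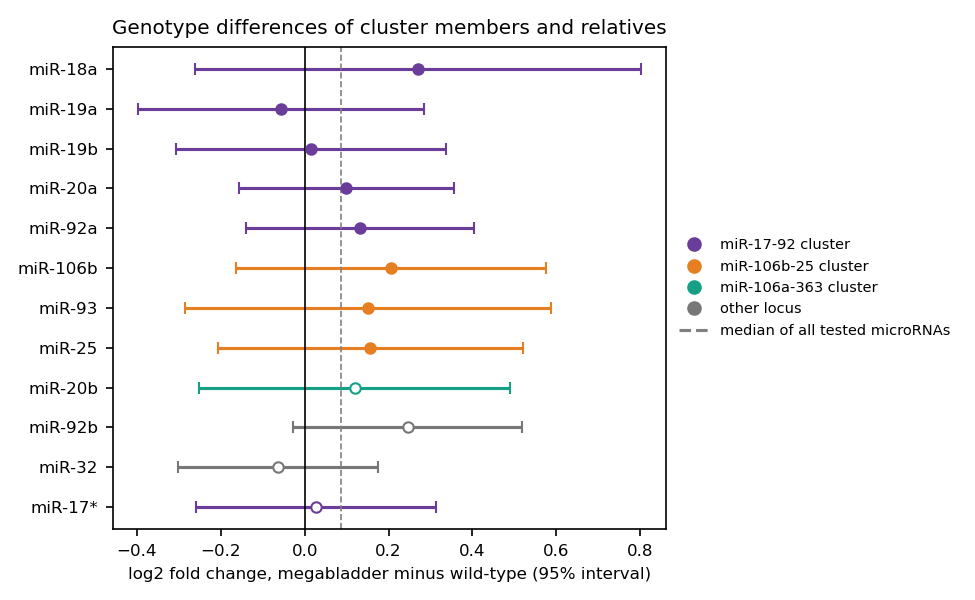
Log2 fold change (megabladder minus wild-type) with its 95% interval from limma for the 8 tested members (filled) and 4 tested relatives (open), coloured by cluster. All 12 intervals include 0, and the dashed line marks the median of all tested microRNAs at 0.087.

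Of 5 further guide strands with a shared seed or cluster, 3 were tested and none passed. The miR-17 family strand miR-20b of the chromosome X cluster had levels of 6.95, 6.78 and 6.99 in megabladder mice 2, 3 and 4, against 6.98, 7.05, 6.53 and 6.58 in wild-type mice 1 to 4, with wild-type mice 3 and 4 again lowest. Its log2 fold change was 0.12 (SE 0.16, adjusted p = 0.751, limma). The miR-92a seed strand miR-92b was at the floor in all 4 wild-type kidneys and in megabladder mouse 3, and reached 3.82 and 3.94 in megabladder mice 2 and 4 (adjusted p = 0.256, limma). Only 1 of its 4 probes was used. The unscaled signals of that probe overlapped, at 8.71 to 10.96 units in megabladder kidneys and 7.32 to 10.51 units in wild-type kidneys. With 5 arrays at the floor, neither the p-value nor the pattern is read as a genotype difference. Another strand with the miR-92a seed, miR-32, was at or just above the floor everywhere, at 3.51 to 3.68 in megabladder kidneys and 3.57 to 3.80 in wild-type kidneys (adjusted p = 0.812, limma). The other 2, miR-18b and miR-363, had no probe above background on 3 arrays. Of 13 discarded arms of these hairpins, 8 had probes in the files and miR-17* was the only arm tested.

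**Figure D3:**
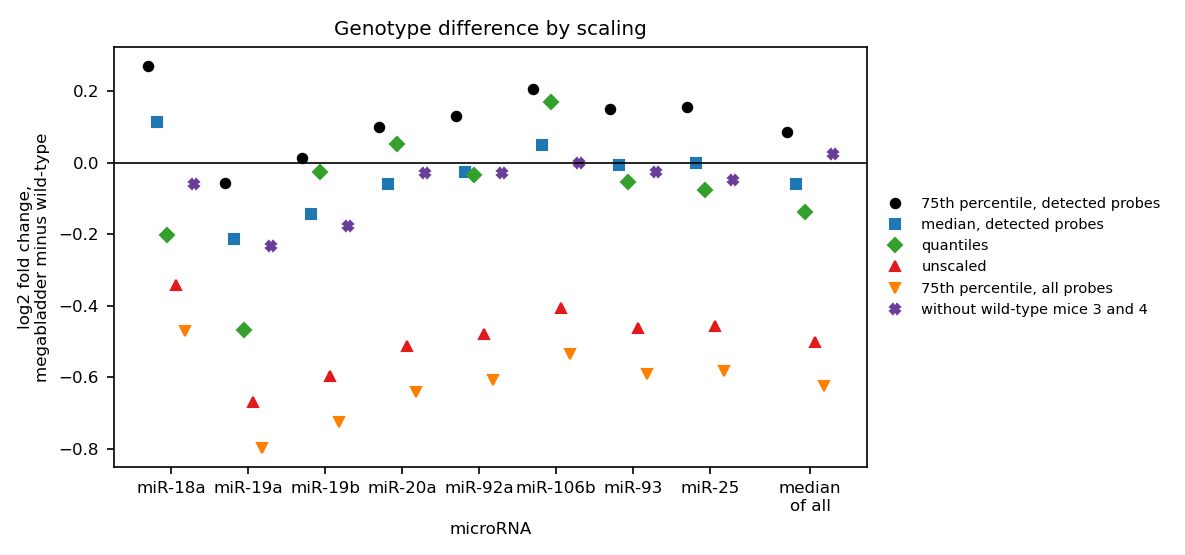
Log2 fold change (megabladder minus wild-type) of the 8 tested members and the median of all tested microRNAs (last position) under 5 scalings of the arrays and without wild-type mice 3 and 4. The members sit between -0.80 and -0.34 without scaling or with all probes as the base of scaling, and between -0.47 and 0.27 under the other 4, so that their direction follows the scaling.

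The direction of the members moved with the median of all microRNAs from scaling to scaling. The median log2 fold change was 0.14 for the members and 0.087 for all microRNAs as reported, -0.015 and -0.058 after scaling by the median, and -0.042 and -0.14 after quantile normalization. Without scaling it was -0.47 for the members and -0.50 for all, and with the 75th percentile over all probes -0.60 and -0.62. Normexp background correction gave 0.27 and 0.35. Relative to the median of all microRNAs, the members' median therefore stayed between -0.089 and 0.14 over all 21 alternatives, while its own value ranged from -0.60 to 0.27. The 0.14 came without the filter on dim probes, where the median was taken over all 611 mouse microRNAs, dim ones included, and was 4.7e-16. The next highest was 0.11, in the deposited values. No member passed the test under any of the 21, the lowest adjusted p being 0.0650, for miR-19a without scaling (limma). Without wild-type mice 3 and 4, a choice made after seeing the data, all 8 members were below 0, from -0.23 for miR-19a to -0.0014 for miR-106b.

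Within an array, a single scaling factor drops out, so the clusters can be set against each other without the choice of that factor, though not without the choice of quantiles or of another signal. The mean level of the 5 tested miR-17-92 members minus that of the 3 miR-106b-25 members was -0.28, -0.045 and -0.50 in megabladder mice 2, 3 and 4, against -0.26, -0.13, -0.20 and -0.20 in wild-type mice 1 to 4. The size of these values reflects the brightness of the probes, and only their change from kidney to kidney is read. Megabladder mice 3 and 4 were the extremes in opposite directions, and all 4 wild-type mice lay between them. The means were -0.28 ± 0.23 in megabladder kidneys and -0.20 ± 0.053 in wild-type kidneys (SD, n = 3 and 4), a difference of -0.079 that is smaller than the pooled SD of 0.15. Leaving out each mouse in turn moved that difference from -0.20 to 0.034, with -0.20 without megabladder mouse 3 and 0.034 without megabladder mouse 4. It was -0.15 after quantile normalization and -0.016 with normexp. In the authors' deposited table it was -0.18 over 6 of the 8 members. The rows there for miR-92a and miR-93 were not used, so fewer strands of both clusters entered that value.

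**Figure D4:**
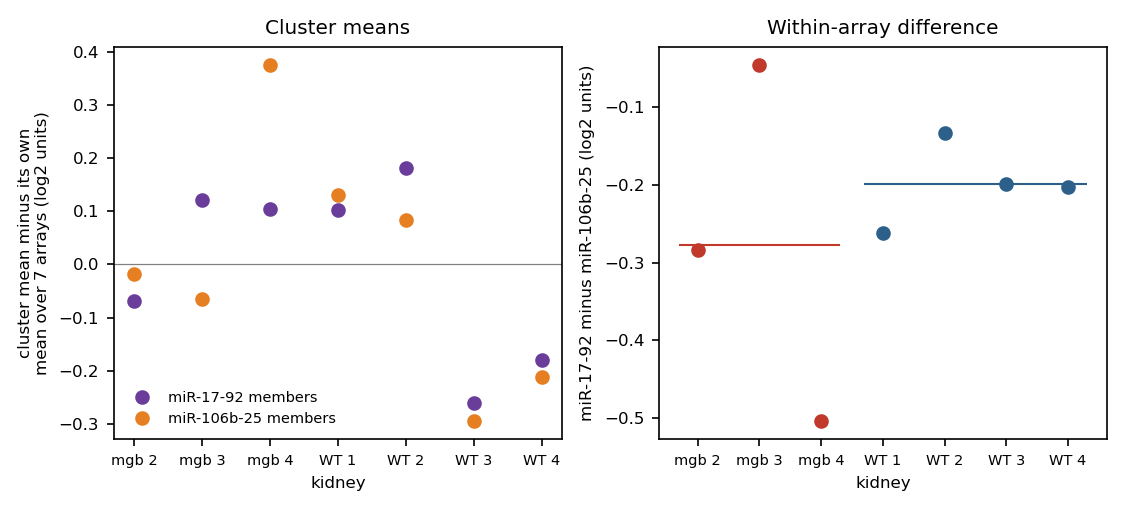
Left, mean level of the tested members of each cluster minus its own mean over the 7 arrays (log2 units), for the megabladder mice (mgb) and then the wild-type mice (WT). Right, the within-array difference of the cluster means, with a line at each genotype's mean. Both clusters are lowest in wild-type mice 3 and 4. The within-array difference is highest in megabladder mouse 3 (-0.045) and lowest in megabladder mouse 4 (-0.50).

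By seed, the mean log2 fold change was 0.15 for the 3 tested strands of the miR-17 family, 0.27 for miR-18a, -0.021 for the miR-19 family, and 0.14 for miR-92a and miR-25. Both of the seed families that span the clusters were also split by cluster. These values reuse strands of the cluster comparison above, so they break that contrast down and are not separate support for it. The level of miR-20a minus the mean of miR-106b and miR-93 was 0.73, 0.97 and 0.33 in megabladder mice 2, 3 and 4, against 0.59 to 0.83 in wild-type kidneys. The level of miR-92a minus that of miR-25 was 0.67, 0.69 and 0.23 in megabladder mice 2, 3 and 4, against 0.47 to 0.61 in wild-type kidneys. In both families, megabladder mouse 4 was lowest of the 7, and megabladder mouse 3 was highest. The mean over the whole miR-17 family cannot show this contrast, since it averages strands of both clusters, and it depends on the scaling. It was 7.24, 7.25 and 7.53 in megabladder mice 2, 3 and 4, against 7.33, 7.35, 6.99 and 7.07 in wild-type mice 1 to 4.

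Across the 7 arrays the members kept close to each other. The SD of the within-array difference between members had a median of 0.14 over the 10 pairs within miR-17-92, 0.11 over the 3 pairs within miR-106b-25 and 0.17 over the 15 pairs between the clusters, beside 0.35 over all 22578 pairs of tested microRNAs. The median was 0.16 over the 5 pairs that share a seed and 0.17 over the 23 that do not. The steadiest pair was miR-106b and miR-25, at 0.049, which lie in Mcm7 on either side of miR-93 and have different seeds. It was followed by the miR-19 strands at 0.058, which share a seed and differ by a single base. The next was miR-20a and miR-92a, at 0.060, which share a transcript but no seed. The array reads the chromosome X copy of miR-92a together with the copy in that transcript. The pairs involving miR-18a within its own cluster were the loosest there, at 0.24 to 0.27, and its single usable probe had unscaled signals of 18.8 to 37.8 units. These values share arrays and scaling, and cross-hybridisation between strands as alike as the miR-19 strands was not tested.

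**Figure D5:**
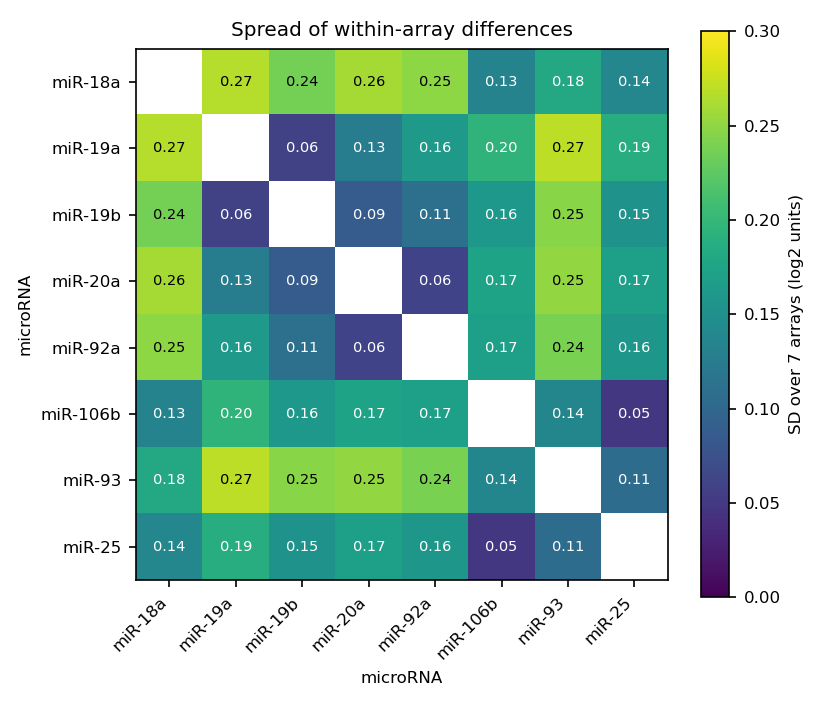
SD over the 7 arrays of the within-array difference in level (log2 units) for each pair of the 8 tested members, with the value in each cell. The lowest values are those of miR-106b with miR-25 (0.05), miR-19a with miR-19b (0.06) and miR-20a with miR-92a (0.06), and the highest are those of miR-18a with miR-19a and of miR-19a with miR-93 (0.27).

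Of the 28 pairs, 3 separated the genotypes without overlap, against 25.5% of all pairs of tested microRNAs, and all 3 set miR-19a against another miR-17-92 strand. The level of miR-19a minus that of miR-92a was -1.93, -1.56 and -1.55 in megabladder mice 2, 3 and 4, against -1.48, -1.47, -1.50 and -1.50 in wild-type mice 1 to 4. All 3 megabladder kidneys were lower, with megabladder mouse 2 far below the others and a gap of 0.045 log2 units between the nearest kidneys of the genotypes. The pairs of miR-19a with miR-19b and with miR-20a had gaps of 0.0063 and 0.0061 log2 units. The share of 3 in 28 lies below the background share, so these pairs are given as values only.

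The 8 levels rest on 15 probes, with 10 spots per probe before outlying spots were dropped, and the median coefficient of variation between the spots of a probe on an array was 3.84% to 8.57%. The unscaled signal of these probes ran from 18.8 to 1003 units. The 2 probes of a member differed in log2 fold change by 0.0083 (miR-93) to 0.19 (miR-19b) in the 7 members that had 2. In 6 of those 7 the brighter probe had the higher log2 fold change, as in 99 of 141 other tested microRNAs (70.2%).

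The 3 tested microRNAs outside these lists whose levels, centred over the 7 arrays, lay closest to the mean profile of the members were miR-15b, miR-196b and miR-28. Their mean absolute difference from that profile was 0.078, 0.082 and 0.092 log2 units, against a median of 0.21 over the 201 other tested microRNAs, while the members themselves lay at 0.047 to 0.12. Levels of miR-15b were 8.64, 8.47 and 8.86 in megabladder mice 2, 3 and 4, against 8.71, 8.67, 8.23 and 8.43 in wild-type mice 1 to 4, so that megabladder mouse 4 was highest and wild-type mice 3 and 4 were lowest here too.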

How the data were processed

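Total RNA of whole kidneys from 3 megabladder and 4 wild-type male mice was read on 1-colour Agilent arrays, 1 array per mouse. Per the file headers, the authors read spot intensity with Agilent Feature Extraction 10.7.3.1. The deposited intensity columns are background-subtracted and carry no scaling between arrays. A value table that the authors deposited holds scaled intensity, with a floor of 20, a column median of 20 and a maximum of 9741 in every column. Its scaling method is not given here by any source used. For a check, the software's total signals were put by rank on the distribution of this value table, array by array. In alphabetical order, the 533rd name was the first above the floor to differ by over 1 log2 unit from its own signal. The value table served as an alternative for the 532 names before it. Of these, 242 were above the floor, and their agreement within 1 log2 unit follows from where the cut was set.

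Control spots and outlying spots were left out, no spot was saturated, and spots of a probe were averaged. Arrays were scaled by the 75th percentile over the 292 of 1857 probes detected on all arrays, floored at 11.4 units (the 1st percentile of the probes well above background) and log2 transformed. A probe counted as above background where at least 0.5 of its spots were, and was used where this held on at least 3 arrays. Genotypes were compared over 213 microRNAs in R 4.3.3 by limma 3.58.1 (lmFit, eBayes), at a Benjamini-Hochberg adjusted p under 0.05; differences are megabladder minus wild-type, and the fit was tested on simulated data. Normexp, an alternative, was run on spot medians where spot means had been planned. Cluster, family and pair values are descriptions with no test. All 10 members, 5 related guide strands, 13 discarded arms, the marker lists and the 3 nearest profiles were named by rule, and the members and lists were chosen with earlier results of these data known. Sequences came from the RefSeq table of GRCm38.p6; coordinates are left out because the array's design is on another build. The number of arrays limits the precision. Figures were drawn with matplotlib 3.10.9.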

Additional observations from a re-analysis of the deposited data

Results flagged for a closer look

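The megabladder mice had 196 to 210 mouse microRNAs above background, and among the wild-type mice, mouse 4 had 190, far from the 204 to 206 of the other 3. It was the only 1 of 26 sets of 4 wild-type values examined in which a kidney stood this far out, and chance alone flags about 1 in 20. All 8 tested members were above background in this kidney.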

How the results depend on the processing

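No member passed the test under any of 21 alternatives, and the members' direction depended on the scaling and on wild-type mice 3 and 4. Log2 fold changes with a turned sign were as follows. With all probes as the base of scaling, they were -0.47 for miR-18a, -0.73 for miR-19b, -0.64 for miR-20a, -0.61 for miR-92a, -0.53 for miR-106b, -0.59 for miR-93 and -0.58 for miR-25. With no scaling, they were -0.34 for miR-18a, -0.60 for miR-19b, -0.51 for miR-20a, -0.48 for miR-92a, -0.41 for miR-106b, -0.46 for miR-93 and -0.46 for miR-25. With the median, they were -0.14 for miR-19b, -0.058 for miR-20a, -0.024 for miR-92a, -0.0065 for miR-93 and -0.00018 for miR-25. With quantiles, they were -0.20 for miR-18a, -0.026 for miR-19b, -0.032 for miR-92a, -0.052 for miR-93 and -0.075 for miR-25. Without wild-type mice 3 and 4 (added after seeing the data), they were -0.058 for miR-18a, -0.18 for miR-19b, -0.029 for miR-20a, -0.028 for miR-92a, -0.0014 for miR-106b, -0.025 for miR-93 and -0.047 for miR-25. The sign of miR-19a turned with normexp (0.32), with the brightest probe (0.023), and without wild-type mouse 2 (0.0050) or megabladder mouse 2 (0.052). The sign of miR-19b turned without wild-type mouse 3 (-0.046), wild-type mouse 4 (-0.045), megabladder mouse 3 (-0.043) or megabladder mouse 4 (-0.0032), that of miR-93 without megabladder mouse 4 (-0.040), and that of miR-18a in the deposited values (-0.074). Leaving out each mouse in turn, log2 fold changes ranged from -0.14 to 0.052 for miR-19a, from -0.046 to 0.085 for miR-19b and from -0.040 to 0.30 for miR-93. The cause was not tested.

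The members' median was -0.60 with all probes, -0.47 with no scaling and -0.042 with quantiles. With all probes the seed family means were -0.59 (miR-17), -0.47 (miR-18), -0.76 (miR-19) and -0.60 (miR-25 and miR-92), and with no scaling -0.46, -0.34, -0.63 and -0.47 in the same order. Quantiles gave -0.20 (miR-18), -0.25 (miR-19) and -0.054 (miR-25 and miR-92), normexp gave 0.21 (miR-19), the deposited values gave -0.074 (miR-18), and leaving out wild-type mice 3 and 4 gave -0.037 (miR-25 and miR-92).

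Over all microRNAs, 7 of 213 passed as reported, and 49 had an unadjusted p under 0.05. There were 69 calls with no scaling, 2 with the median, 4 with probes above background on all arrays, 2 with the total gene signal, 1 with the deposited values and 1 without wild-type mice 3 and 4. It was 0 by limma with all probes, quantiles, normexp, no filter on dim probes or a floor of 1, where 107, 45, 35, 40 and 30 had an unadjusted p under 0.05. Leaving out a mouse gave 0 to 11: 0 without wild-type mouse 1, 2 or 3, 1 without wild-type mouse 4 or megabladder mouse 2 and, of the megabladder mice, 11 when mouse 3 was left out and 4 when mouse 4 was. A replicate block on mice 2, 3 and 4 gave 28 calls, none a member, with a members' median of 0.20. The deviations of same-numbered mice from their genotype's mean over mice 2, 3 and 4 correlated at -0.19, 0.0042 and 0.34. The number is also the slide column, and whether these mice share anything further was not tested. Slide row could not be fitted beside genotype.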

Other observations

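In the authors' deposited table, the row for miR-93 held 20 to 31 units over the 7 kidneys. With the total signals put by rank on that table's distribution, the row lay on average 2.84 log2 units from the miR-93 signal. It lay 0.032 log2 units from the signal of miR-92b, the name just before it in alphabetical order. The authors' deposited table holds 2 rows for miR-92a that disagree, with 20 to 34 units in the first and 265 to 350 units in the second. From the 533rd name on, 31 names of the authors' deposited table were above its floor, of which 29 matched the preceding name's signal within 1 log2 unit and 15 matched their own. The rows for miR-92a and miR-93 were therefore not used. For miR-17 the authors' deposited table gave 20 units, its floor, in all 3 megabladder kidneys, and 25, 24, 26 and 20 units in wild-type mice 1 to 4.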
